A study of Mus musculus with 6 samples.

Results

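This report covers genes of nucleic acid sensing and the interferon response in mouse J1 ES cells that were moved from serum medium into 2i+vitC. The members were 9 genes chosen by name for their known roles: Ifih1, Ddx58, Mavs, Tlr3, Isg15, Ifit1, Oasl2, Irf7 and Bst2. Of these, 4 had a row among the 12626 genes analysed, namely Ddx58, Mavs, Oasl2 and Bst2. For Ifih1, Tlr3, Isg15, Ifit1 and Irf7 no row was used, and they were not analysed here. Among the gene rows that were used, none had a third-highest value under 0.991 CPM (reads scaled to library size) over the 6 samples. A gene above that level in both samples of 1 day only would therefore have no row, so that a rise of these 5 members confined to D6 would not be seen.

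Cells carry receptors for foreign nucleic acids, which transposon transcripts and their cDNA can also engage. RIG-I (encoded by Ddx58) and MDA5 (Ifih1) bind RNA in the cytosol and signal through the mitochondrial adaptor MAVS, while TLR3 binds RNA in endosomes. The kinase TBK1 and the factors IRF3 and IRF7 then switch on type I interferons, which act through the receptor of IFNAR1 and IFNAR2 on interferon-stimulated genes such as Isg15, Ifit1, Oasl2 and Bst2. Pluripotent stem cells are known for a weak interferon response. The comparisons below ask whether these genes moved with the transposon transcripts at D6.

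RNA was sequenced from wild-type J1 cells, a mouse ES cell line, as 6 samples, 2 biological replicates for each of 3 days. At D0 the cells were in serum medium with 15% FBS and 1000 U/mL LIF, on gelatin and without feeders. At D6 and D13 of conversion they were in serum-free medium with the same LIF, the Gsk3 inhibitor CT-99021 at 3 µM, the MEK inhibitor PD0325901 at 1 µM and vitamin C at 100 µg/mL. Day and medium therefore changed together from D0 to D6, and the effect of either inhibitor, of vitamin C or of serum removal cannot be told apart.

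The samples held between 73230745 and 83688345 reads on genes, and 3 reads corresponded to between 0.0344 and 0.0420 CPM. All 5 pluripotency markers had rows and summed to between 1980 and 2865 CPM in the 6 samples. Single markers moved more than the sum: Utf1 fell by 2.10 on the log2 scale from D0 to D6 (limma adjusted p = 0.000969). From D0 to D13, 2 of the 5 passed as lower, Utf1 and Sox2. Between D0 replicates 1 and 2, Esrrb stood at 156 and 436 CPM and Zfp42 at 476 and 859 CPM. Of 7 markers of macrophages and other blood cells, 2 had a row, and from D0 to D13 Cd68 rose by 1.36 (adjusted p = 0.0036) while Itgam fell by 2.65 (adjusted p = 0.0143). Fibroblast markers (5 of 8 with a row) summed to 34.3 CPM in D0 replicate 1, 15.9 in D0 replicate 2 and 10.8 to 13.1 in the other 4 samples. Trophoblast markers (3 of 5 with a row) summed to 170.4 and 110.9 CPM at D0 and to 17.9 to 23.2 CPM in the other 4 samples, and primitive endoderm markers (4 of 6) to 99.5 and 146 CPM at D0 and to 6.49 to 37.5 CPM afterwards. Both sums were thus higher in serum, through Krt8 and Krt18 for trophoblast and Col4a1 and Dab2 for primitive endoderm. Col4a1 alone stood at 81.7 and 125.5 CPM at D0. Eomes, Sox17 and Pdgfra did not pass the limma test from D0 to D6 or to D13. The part of these markers in the falls from D0 given below was not tested. D0 replicate 1 thus stood apart from its replicate, also in the results given below. In bulk samples, fewer cells of a type and less RNA per cell cannot be told apart.

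The RNA sensor Ddx58 fell after D6. Its levels were 31.1 and 39.0 CPM in serum, 22.3 and 36.8 CPM at D6, and 3.94 and 5.75 CPM at D13. D0 and D6 overlapped, and both D13 samples lay below every other sample. From D0 to D6 the log2 change was -0.28 (SE 0.33, 95% confidence interval -1.03 to 0.47, limma adjusted p = 0.599), so that no change was detected at the day of the transposon rise. From D6 to D13 Ddx58 fell by 2.59 on the log2 scale (SE 0.33, adjusted p = 0.0157), which is 6.02-fold. This call was lost without D6 replicate 2 (adjusted p = 0.0702) or D13 replicate 1 (adjusted p = 0.104). From D0 to D13 the fall was 7.32-fold (log2 change -2.87, SE 0.33, adjusted p = 0.000276). The gene lies at chr4:40203773-40239828 on the minus strand (GRCm38) and overlaps no other annotated gene.

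Mavs, the adaptor that relays the signal of both cytosolic RNA sensors, was the member that rose. It stood at 24.8 and 21.9 CPM in serum, 58.7 and 59.9 CPM at D6, and 51.0 and 58.9 CPM at D13. All 4 samples in 2i+vitC lay above both serum samples, while D6 and D13 overlapped. The rise from D0 to D6 was 2.55-fold (log2 change 1.35, SE 0.22, adjusted p = 0.00224), and from D0 to D13 2.35-fold (log2 change 1.23, SE 0.22, adjusted p = 0.00231). Between D6 and D13 the log2 change was -0.11 (95% confidence interval -0.60 to 0.38, adjusted p = 0.783). Mavs lies at chr2:131234063-131248025 on the plus strand and overlaps no other gene.

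Oasl2 encodes an interferon-induced relative of the 2′-5′-oligoadenylate synthetases. It was the least abundant member on each day, with 7.99 and 1.91 CPM in serum, 1.26 and 0.664 CPM at D6, and 0.287 and 0.233 CPM at D13. The days did not overlap, and D0 replicate 1, with 629 reads against 166 in its replicate, was the highest sample. At D13 only 20 and 17 reads remained. From D0 to D6 the log2 change was -2.09 (SE 0.70, 95% confidence interval -3.68 to -0.50), which did not pass the test (adjusted p = 0.0608). Without D0 replicate 1 this change was -1.06, and without D0 replicate 2 it was -3.13 and passed (adjusted p = 0.0103). From D6 to D13 it was -1.82 (SE 0.70, adjusted p = 0.155). Over the whole conversion Oasl2 fell by 3.92 on the log2 scale (SE 0.70, adjusted p = 0.00255), or by 2.02 on the log2(CPM + 1) scale, which damps low values. The fibroblast markers Col1a1, Col1a2 and Thy1 were also highest in D0 replicate 1, while Pdgfra and Pdgfrb (1.28 and 3.39 CPM there) were not. The part of these markers in the Oasl2 result was not tested. The gene lies at chr5:114896936-114912234 on the plus strand. Its near relative Oasl1 could share reads with it.

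Bst2 encodes tetherin, a membrane protein that holds budding enveloped viruses at the cell surface, and was the member with its lowest mean at D6. Its 250 bases before the RefSeq start site are shown because they hold an interferon-stimulated response element core, searched as GAAANNGAAA on both strands (TTTCNNTTTC on the other). They lie at chr8:71537473-71537722 on the minus strand (GRCm38.p6, RefSeq). Capitals mark 2 overlapping matches that begin 130 and 124 bases before the start:
Bst2 upstream: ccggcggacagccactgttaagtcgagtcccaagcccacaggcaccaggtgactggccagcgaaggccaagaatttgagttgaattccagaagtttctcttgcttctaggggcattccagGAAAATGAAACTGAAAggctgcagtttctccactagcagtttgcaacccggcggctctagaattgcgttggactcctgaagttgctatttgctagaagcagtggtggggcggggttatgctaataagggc
This core was found in 3.44% of 32851 RefSeq promoter windows of 300 bases (250 before and 50 after the start). By gene, with any window counted, it was found in 3.99% of 27025 genes and in 26 of 71 listed interferon-stimulated genes (36.6%). Ddx58 had 1 match, TTTCGATTTC, just after its start. Mavs and Oasl2 held none in this window. Among members without a row, Isg15 had 3 matches, Ifit1 had 2 and Ifih1 had 1.

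Bst2 measured 63.3 and 73.5 CPM in serum, 25.1 and 19.1 CPM at D6, and 71.0 and 47.0 CPM at D13. Both D6 samples lay below all others, and D0 and D13 overlapped. From D0 to D6 Bst2 fell 3.12-fold (log2 change -1.64, SE 0.27, adjusted p = 0.00266). It rose again from D6 to D13 by 1.40 on the log2 scale (SE 0.27, adjusted p = 0.0319), a call lost without D6 replicate 1, D6 replicate 2 or D13 replicate 1 (adjusted p = 0.0901, 0.271 and 0.140). D0 and D13 differed by a log2 change of -0.24 (95% confidence interval -0.86 to 0.38, adjusted p = 0.504). The gene lies at chr8:71534255-71537456 on the minus strand and overlaps no other gene.

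**Figure D1:**
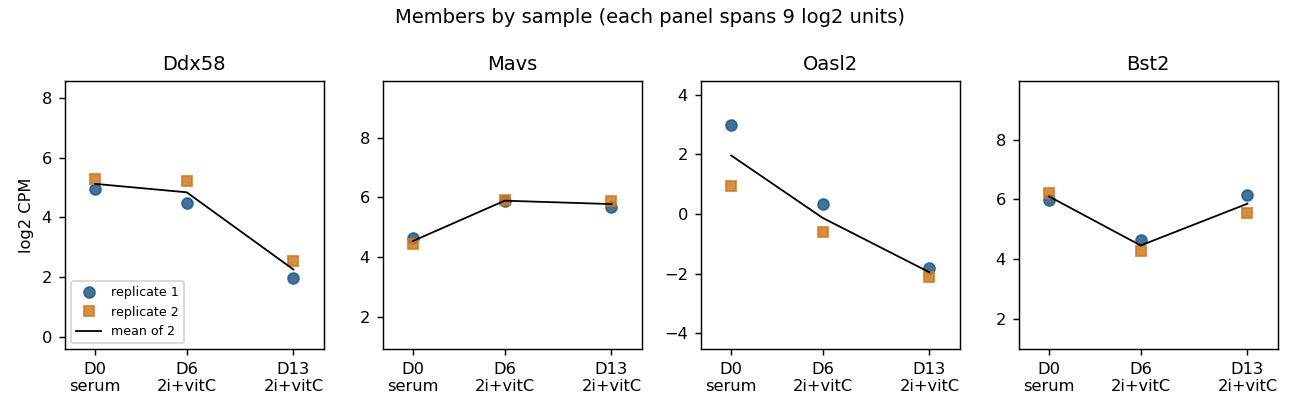
Log2 CPM (y axis) of the 4 members with a row in each sample by day (x axis), with circles and squares for the 2 replicates and a line through the day means. Ddx58 drops at D13, Mavs is higher on both days in 2i+vitC, Oasl2 declines from a D0 mean of 1.96 to -1.95 at D13, and Bst2 is lowest at D6.

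Read against all 12928 genes and transposon families tested, from D0 to D6 1 of 4 members rose (Mavs, where 13.7% of all features rose) and 1 fell (Bst2, where 10.2% fell). None passed with more than a 4-fold change, the minimum of the study for genes, which 9.75% of all features, families included, exceeded. From D6 to D13 Bst2 rose, where 1.39% of features did, and Ddx58 fell, where 2.78% did. Ddx58 was also past 4-fold, as were 1.10% of features. From D0 to D13 Mavs rose (20.6% of features) and Ddx58 and Oasl2 fell (21.5%), both by more than 4-fold (13.3%). With 4 genes these shares describe the members and are not a test. The contrasts share samples and are not independent of each other.

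A peak or trough at D6 was tested as D6 against the mean of D0 and D13. Ddx58 was higher at D6 by 1.15 on the log2 scale (SE 0.29, adjusted p = 0.0406) and Mavs by 0.73 (SE 0.19, adjusted p = 0.0450), where 5.61% of all features were higher. In neither gene did D6 stand above both other days, since its samples overlapped those of D0 for Ddx58 and those of D13 for Mavs. Both calls were lost without either D6 replicate, with adjusted p from 0.0760 to 0.525 for Ddx58 and from 0.443 to 0.454 for Mavs, and also without D0 replicate 2 or D13 replicate 1. The Ddx58 call was lost without D0 replicate 1 as well. Bst2 was lower at D6 by a log2 difference of -1.52 (SE 0.24, adjusted p = 0.00672), where 3.26% of features were lower, and lost its call without D6 replicate 2 (adjusted p = 0.0720). Oasl2 gave -0.13 (SE 0.60, adjusted p = 0.945). No member passed 4-fold in this contrast, as 2.61% of features did.

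**Figure D2:**
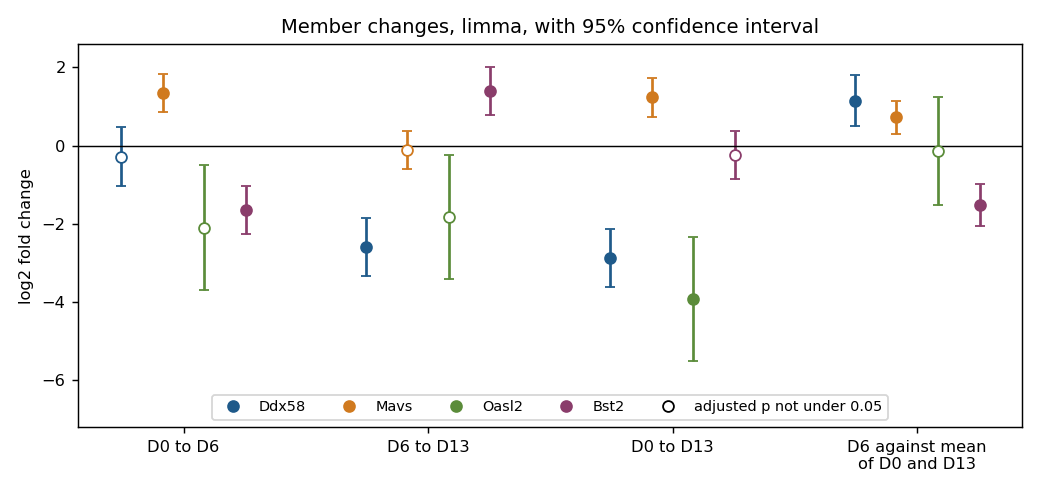
Log2 fold change (y axis) of each member in 4 contrasts (x axis) from limma, with 95% confidence intervals. Filled points had an adjusted p under 0.05. Mavs is above 0 from D0 to D6 (1.35) while Bst2 is below it (-1.64), and the largest fall is that of Oasl2 from D0 to D13 (-3.92).

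Per length of exon, as RPKM (CPM divided by exon length in kilobases), Bst2 was the most abundant member on each day, followed by Mavs, Ddx58 and Oasl2. Bst2 measured 75.8 ± 8.0 RPKM in serum, 24.5 ± 4.7 at D6 and 65.3 ± 18.8 at D13 (mean ± SD, n = 2). At D6 it lay closest to Mavs, at 17.7 ± 0.3 RPKM. Ddx58 went from 4.97 ± 0.80 RPKM at D0 to 0.687 ± 0.182 at D13, and Oasl2 from 0.776 ± 0.675 to 0.0408 ± 0.0059. Neighbours in this order did not overlap on any day. Against the other genes, Bst2 stood at percentile 95.5 of RPKM at D0 and 81.3 at D6, and Ddx58 moved from percentile 43.5 to 11.9 between D0 and D13.

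The 3 members with the widest range of day means were matched to 11820 genes with at least 10 reads in every sample, by the root-mean-square difference of centred log2 CPM over the 6 samples. Ddx58 was most like 4930429B21Rik (0.18), Zfp882 (0.22) and Fsd1l (0.24). Bst2 was most like Mxra7 (0.15), Nsmf (0.17) and Efnb1 (0.18). The nearest to Oasl2 were Cdh2 (0.42), Igf2 (0.47) and Fjx1 (0.56), at larger distances. None of these is an interferon-stimulated gene of the list used here.

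The transposon families set beside the members are endogenous retroviruses (MMERGLN, ETnERV3, IAPEz and MERVL) and young LINE1 elements. From D0 to D6 MMERGLN-int rose by 5.01 on the log2 scale (limma adjusted p = 4.88e-05), ETnERV3-int by 6.45 (adjusted p = 0.000116), IAPEz-int by 1.19 (adjusted p = 0.0257) and L1Md_A by 1.12 (adjusted p = 0.0287). The ETnERV3-int replicates differed widely, with 6.70 and 2.52 CPM at D0 and 635 and 203 CPM at D6, and its change lay between 5.63 (without D6 replicate 1) and 7.27 (without D6 replicate 2), with 7.15 and 5.74 without D0 replicate 1 or 2. The IAPEz-int call was lost without either D0 replicate or D6 replicate 1 (adjusted p from 0.0676 to 0.293), and the L1Md_A call without D0 replicate 1 or either D6 replicate (adjusted p from 0.126 to 0.145). L1Md_T gave 0.61 (adjusted p = 0.126) and MERVL-int -0.13 (adjusted p = 0.849). Of all families 58.9% had their highest day mean at D6, against 21.1% of all genes. Weighted reads on families had a share of 1.35 ± 0.24% in serum, which was 2.06 ± 0.57% at D6 and then 1.08 ± 0.16% at D13 (mean ± SD, n = 2). Among the members, only Mavs had its highest mean at D6, and it was still above serum at D13. The families went both ways by then. ETnERV3-int stood at 30.7 and 36.3 CPM at D13, above both its serum samples. IAPEz-int stood at 202 and 266 CPM at D13, against 153 and 126 CPM in serum. L1Md_T was below D0 by a log2 difference of -1.24 (limma adjusted p = 0.0052), and L1Md_A and MERVL-int were also lower than in serum. Whether any member responds to transposon RNA was not tested.

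**Figure D3:**
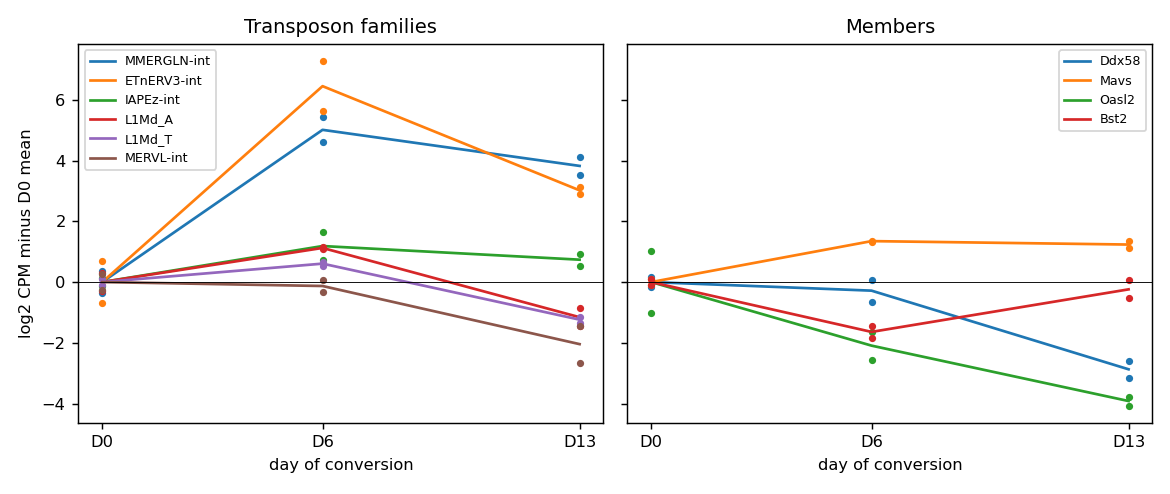
Log2 CPM minus the D0 mean (y axis) by day of conversion (x axis) for 6 transposon families (left) and the 4 members (right), with lines through day means and points for the 2 replicates. At D6, ETnERV3-int is 6.45 and MMERGLN-int 5.01 above D0, while among the members Mavs is 1.35 above it and the other 3 have means below it.

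Among RNA sensors and adaptors, 16 of 22 listed genes had a row, and from D0 to D6 3 rose (where 13.7% of all features did) and 2 fell (where 10.2% did). Those that rose were Oas1a, Rnf135 and Mavs. Oas1a, a synthetase of the 2′-5′-oligoadenylates that activate RNase L, had 216 and 220 reads in serum, 4657 and 5624 at D6 and then 3644 and 2680 (log2 change from D0 to D6 4.57, SE 0.27, adjusted p = 2.09e-05). It has near-identical copies that may share reads. Rnf135, a ubiquitin ligase that activates RIG-I, rose by 1.53 on the log2 scale (SE 0.41, adjusted p = 0.0276) and fell again by 1.83 to D13 (adjusted p = 0.0465). Zcchc3, a co-sensor of RIG-I and MDA5, gave -1.28 (SE 0.24, adjusted p = 0.00521) and Oas3 -1.30 (SE 0.40, adjusted p = 0.0454). The kinase gene Eif2ak2 (PKR) gave 0.32 (adjusted p = 0.350) and Dhx58 (LGP2) -0.53 (adjusted p = 0.438). The Rnf135 and Oas3 calls were each lost without either D6 replicate and without 1 D0 replicate (replicate 1 for Rnf135, replicate 2 for Oas3), with adjusted p from 0.105 to 0.240, and the later fall of Rnf135 without either D6 replicate or D13 replicate 1 (adjusted p from 0.173 to 0.261). Zcchc3 lost its call without D6 replicate 1 (adjusted p = 0.0569). From D0 to D13 3 rose and 5 fell, where 20.6% and 21.5% of all features did. The list median was -0.48 against -0.02 over all features. At D6 against the mean of D0 and D13, 4 were higher and 0 lower, where 5.61% and 3.26% of all features were. They included Ddx58 and Mavs, whose calls are given above. Of the 16, 7 had their highest mean at D6 (43.8%, beside 21.1% of all genes), 7 at D0 and 2 at D13.

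No DNA sensor passed the limma test from D0 to D6 (12 of 17 with a row), where 13.7% of all features rose and 10.2% fell. At an unadjusted p under 0.05, 2 DNA sensors were higher. Mb21d1, which encodes cGAS, gave 1.11 (SE 0.36, adjusted p = 0.0571) and Tmem173, which encodes STING, 1.37 (SE 0.54, adjusted p = 0.104). By D13 Mb21d1 was higher than at D0 by 1.79 (SE 0.36, adjusted p = 0.00464), and Unc93b1, which carries endosomal Toll-like receptors, by 1.16 (SE 0.33, adjusted p = 0.0217). The Unc93b1 call was lost without D13 replicate 1 or either D6 replicate (adjusted p from 0.0505 to 0.0879). Among nucleases and editors that limit self nucleic acids (14 of 16 with a row), 4 were higher and 0 lower from D0 to D6 at an unadjusted p under 0.05. After adjustment 3 rose (21.4%) and none fell, beside 13.7% and 10.2% of all features. They were Zc3hav1, an antiviral RNA-binding protein (log2 change 3.07, SE 0.29, adjusted p = 0.000173), the lysosomal nuclease gene Dnase2a (2.67, SE 0.28, adjusted p = 0.000266) and the RNase H2 subunit gene Rnaseh2b (0.93, SE 0.22, adjusted p = 0.0154), whose call was lost without D0 replicate 2 or either D6 replicate (adjusted p from 0.0576 to 0.183). Adar, Trex1 and Samhd1 gave -0.09, 0.09 and -0.37 (adjusted p = 0.837, 0.889 and 0.363).

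Of the signalling kinases and transcription factors, 27 of 30 had a row, of which 5 rose (18.5%) and 4 fell (14.8%) from D0 to D6, beside 13.7% and 10.2% of all features. Irf8, a factor best known from blood cells, went from 279 and 236 reads to 7 and 11 (log2 change -4.77, SE 0.63, adjusted p = 0.000826), and Jun fell by 2.93 (SE 0.31, adjusted p = 0.000281). Irf1 fell by 1.28 (adjusted p = 0.00653). Irak4 rose by 1.65 (SE 0.34, adjusted p = 0.00873), Relb by 1.52 (SE 0.36, adjusted p = 0.0155) and Stat2 by 1.27 (SE 0.22, adjusted p = 0.00366). Other genes of the core route that did not pass were Tbk1 at -0.25 (adjusted p = 0.529), Irf3 at -0.11 (adjusted p = 0.840) and Irf9 at 0.61 (adjusted p = 0.120). Irak4, Relb and Irf1 lost their calls without D6 replicate 1 (adjusted p = 0.136, 0.0762 and 0.0614), and Relb also without D0 replicate 1 (adjusted p = 0.0672). From D0 to D13 3 rose (11.1%) and 10 fell (37.0%), beside 20.6% and 21.5% of all features. Among those that fell were Nfkb1 (-2.93, limma adjusted p = 0.000173) and Traf6 (-2.27, adjusted p = 0.000741). At D6 against the mean of D0 and D13, 1 gene was higher (3.70%) and 2 lower (7.41%), beside 5.61% and 3.26% of all features. The higher gene was Irf9, whose call was lost without either D6 replicate. Irf9 stood at 12.1 and 14.4 CPM in serum, 20.1 and 20.1 at D6, and 9.11 and 9.95 at D13. Both D6 samples lay above all others.

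For the interferons themselves, Ifnb1 included, no row was used, and only 6 receptor genes of 24 listed names had one. As for the members without a row, a rise of the interferon genes confined to D6 would not be seen. The type I receptor genes Ifnar1 and Ifnar2 gave log2 changes of -0.02 and 0.14 from D0 to D6 (adjusted p = 0.960 and 0.819). Ifngr1 fell by 1.59 (SE 0.32, adjusted p = 0.00742) and Ifnlr1 rose by 1.27 (SE 0.36, adjusted p = 0.0338). Without D6 replicate 2 both calls were lost (adjusted p = 0.0966 and 0.117), and that of Ifnlr1 also without D0 replicate 1 or D6 replicate 1 (adjusted p = 0.144 and 0.171). Of 19 inhibitors of the response with a row (of 23), 2 rose and none fell in limma from D0 to D6. Of all features, 13.7% rose and 10.2% fell. The 2 inhibitors were Socs3 (1.45, adjusted p = 0.0448) and Rnf125 (1.42, adjusted p = 0.0275). Socs3 kept its call only without D0 replicate 1, and Rnf125 lost it without any 1 of the D0 and D6 samples. At an unadjusted p under 0.05, 3 were higher and 2 lower.

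Interferon-stimulated genes, the targets of the pathway, moved in both directions. Of 59 with a row (of 90 listed), 17 rose and 12 fell from D0 to D6, which is 28.8% and 20.3% of the list beside 13.7% and 10.2% of all features. The median log2 change was 0.25, beside -0.01 over all features. Past 4-fold, 10 of the 59 rose and 3 fell, beside 769 and 492 of all 12928 features. The count that passed depended on single libraries: it was 18 without D6 replicate 1, and without D0 replicate 1 14 rose and 6 fell. Without D0 replicate 2 13 rose and 14 fell, and the median was -0.06. A fit with 1 sample left out has fewer samples for every feature, and the share of all features in such fits was not compared. The list includes Ddx58, Oasl2 and Bst2 and shares other genes with the lists above. Listed genes without a row included Isg15, Ifit1, Mx1, Rsad2, Usp18 and Cxcl10. As for the members without a row, a rise of such genes confined to D6 would not be seen.

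From D0 to D6 the genes of the list with the largest changes were Sp100, Ifi27, Oas1a and Irgm1. Sp100, a nuclear body protein, had 0 and 8 reads in serum, 191 and 118 at D6, and then 241 and 122 (log2 change from D0 to D6 6.21, SE 1.12, adjusted p = 0.00423, a size that depends on the 0.5 reads added to each count and lay at 4.24 or 8.18 when D0 replicate 1 or 2 was left out). Ifi27 had 11 and 15 reads in serum, 577 and 647 at D6, and then 925 and 813 (5.54, SE 0.36, adjusted p = 3.37e-05). From D6 to D13 Sp100 gave 0.35 and Ifi27 0.67 (limma adjusted p = 0.878 and 0.295). Oas1a went from 4657 and 5624 reads at D6 to 3644 and 2680 at D13. Over this step 38 of the 59 genes had a lower mean and 21 a higher one, beside 6673 and 6255 of all 12928 features. Irgm1, an interferon-induced GTPase, fell from 3583 and 574 reads in serum to 66 and 119 at D6, with 10 and 11 left at D13 (-3.99, SE 0.80, adjusted p = 0.00693, with -2.60 without D0 replicate 1 and -5.38 without D0 replicate 2). Its D0 replicates differed in the same direction as those of Oasl2. Irf1 (96.1 and 63.6 CPM) and Samd9l (4.08 and 1.22 CPM) were also higher in D0 replicate 1 than in D0 replicate 2. Ddx58, Bst2 and Tor3a (41.7 and 56.5 CPM) were higher in D0 replicate 2.

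From D6 to D13 2 genes of the list rose (3.39%) and 2 fell (3.39%), beside 1.39% and 2.78% of all features. Bst2 and Tap1, a peptide transporter of antigen presentation (1.45, SE 0.32, adjusted p = 0.0445), rose, and Ddx58 and Samd9l, an antiviral restriction factor (-3.19, SE 0.62, adjusted p = 0.0320), fell. This small count ranged from 0, without D6 replicate 2 or D13 replicate 1, to 10, without D13 replicate 2. It was 1 without D6 replicate 1 and 9 without either D0 replicate. From D0 to D13 16 rose (27.1%) and 17 fell (28.8%), beside 20.6% and 21.5% of all features, with a median of -0.27 beside -0.02 over all features. In the contrast of D6 against the mean of D0 and D13, 9 were higher and 3 lower, where 5.61% and 3.26% of all features were, and the total was 5 without D6 replicate 2 and 6 without D6 replicate 1. Of the 59 genes 22 (37.3%) had their highest mean at D6, 24 at D0 and 13 at D13. Among all genes, 21.09% had it at D6, 41.76% at D0 and 37.15% at D13.

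**Figure D4:**
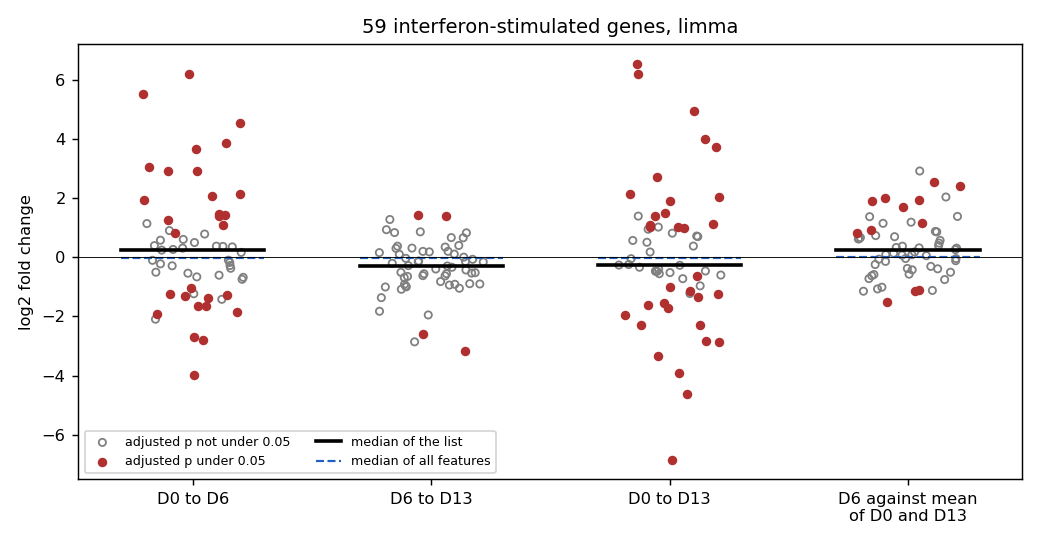
Log2 fold change (y axis) of the 59 interferon-stimulated genes in 4 contrasts (x axis). Red points had a limma adjusted p under 0.05, black lines mark the median of the list and dashed lines the median of all features. From D0 to D6 the red points lie on both sides of 0 (17 above, 12 below), and from D6 to D13 4 remain.

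**Figure D5:**
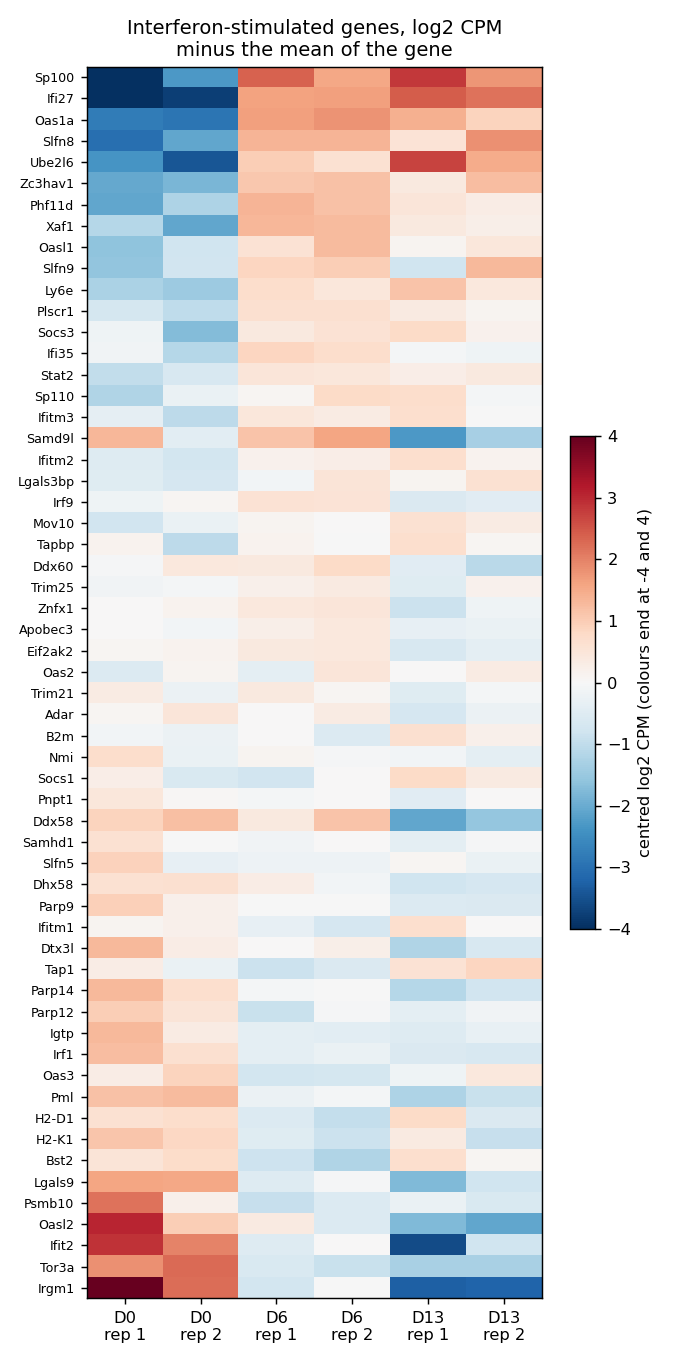
Log2 CPM of the interferon-stimulated genes with a row, except 1 not reported here (rows, ordered by the change from D0 to D6) in the 6 samples (columns), with the mean of each gene subtracted and colours from blue (low) to red (high). Genes at the top, such as Sp100 and Ifi27, are low at D0 and high on both later days, and those at the bottom, such as Irgm1 and Tor3a, are higher at D0. Irgm1 and Oasl2 are highest in D0 replicate 1, and Tor3a and Bst2 in D0 replicate 2.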

How the data were processed

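Transcriptomes of J1 cells from 3 days of conversion were analysed, grouped by day. Per the submitters' processing notes and the methods of the study, the authors aligned read pairs to mm10 by TopHat2 2.0.6 with RefSeq genes and obtained gene counts with HTSeq 0.6.1. For transposons they mapped reads left after removal of rRNA with Bowtie 1.0.0, left out exonic reads and gave a read with several sites a lower weight at each. The deposited values are log2 CPM per sample, which the authors made with TMM and voom from both tables. The kit was stranded, and the strand setting of the counting is not given in the sources used here.

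Each deposited gene value was a whole number of reads plus 0.5, scaled to the library (100% of values within 0.01 reads), so reads were recovered from them. The log2 CPM values were tested with limma 3.58.1 (R 4.3.3), with a mean per day, a mean-variance trend, all 6 samples and no block, and adjusted by Benjamini-Hochberg over 12928 genes and families. A gene passed at an adjusted p under 0.05. With 2 samples a day, an exact test of a single gene cannot give a p under 0.333. In simulated data for D0 to D6, 87.5% of 200 genes with a log2 change of 3 were recovered among 12928 features, and 3 unchanged ones were called. Smaller changes, such as those of all members with a row in that step, were not simulated.

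The members and gene lists were chosen with earlier results of these data known. Beside the members, up to 4 genes per list were named for each of D0 to D6, D6 to D13 and D0 to D13. They had the largest log2 changes among genes that passed and moved the same way in both replicate pairs. They also reached 10 reads in both samples of the day with the higher level. A set of core pathway genes was named in addition. For D6 against the mean of D0 and D13 no gene was picked by this rule. A gene named in 1 contrast may be given in others. The result of 1 listed gene is not reported here, though it is included in the counts of its lists. Gene names in the files hold no capital G, and rows with altered names were tested but not named. Positions and exon lengths are from GENCODE vM21 (GRCm38, the build named mm10), and promoter windows from RefSeq (GRCm38.p6). Python 3.11.15 with pandas 2.3.3 and numpy 2.4.6 was used for tables. Alternatives were other call rules, filters, fits and scalings, a replicate block, and each sample left out.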

Additional observations from a re-analysis of the deposited data

How the results depend on the processing

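Of 220 values of single members under alternative settings, 196 kept their direction and their side of the threshold, 18 no longer passed, 2 newly passed and 4 changed sign. Of 142 counts, 107 stayed within 1.5 times. Leaving out a sample leaves its day with 1, which is assumed to vary like the others. It also leaves fewer samples for the test of every feature, so a call can be lost while the log2 change stays the same. Unc93b1 from D0 to D13 stayed at 1.16 without either D6 replicate. Sign changes concerned values that did not pass: Ddx58 from D0 to D6 (-0.65 to 0.0803 over samples left out), Bst2 from D0 to D13 (-0.54 to 0.0581) and Oasl2 at D6 against the mean of D0 and D13 (-0.65 to 0.38). The cause was not tested.

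With samples left out in turn, members that passed numbered 2 to 3 in the D0 to D6 step, 0 to 2 in the D6 to D13 step and 0 to 3 for D6 against the mean of D0 and D13. Interferon-stimulated genes that passed numbered 18 to 29, 0 to 10 and 5 to 16 in the same order. With the 4-fold minimum, members fell to 0 in the D0 to D6 step, 1 in the D6 to D13 step and 0 for D6 against the mean, and interferon-stimulated genes to 13 in the D0 to D6 step, 16 from D0 to D13, 2 from D6 to D13 and 3 for D6 against the mean. At an adjusted p under 0.01, members fell to 0 from D6 to D13 and to 1 for D6 against the mean, and interferon-stimulated genes to 16 in the D0 to D6 step, 0 in the D6 to D13 step and 6 for D6 against the mean. At an unadjusted p under 0.05, 23 interferon-stimulated genes passed from D6 to D13 and 31 for D6 against the mean. Without a mean-variance trend, 1 member passed for D6 against the mean. From D6 to D13, 9 interferon-stimulated genes passed with only the days compared and 7 on the log2(CPM + 1) scale. Fitting only the days compared gives no value for D6 against the mean. The Mavs difference of D6 from that mean was also lost when samples were centred on the median gene (adjusted p = 0.0630).

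Replicate numbers were not taken to pair the samples, since the differences between replicates correlated over genes at -0.13 (D0 and D6), 0.33 (D6 and D13) and 0.14 (D0 and D13), so that 1 pair of days went the other way. Over transposon families they were 0.54, 0.10 and 0.22. With the replicate block, 12 interferon-stimulated genes passed from D6 to D13 and 21 for D6 against the mean, and Oasl2 passed from D0 to D6 (-2.09, adjusted p = 0.0141). An SD here rests on 2 samples, and low genes such as Oasl2 and Sp100 rest on few reads.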
